A study of Homo sapiens with 3 samples.

Results

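IRF4, MYC, PRDM1, XBP1 and POU2AF1 are 5 genes of the transcriptional core of plasma cells, and their messenger RNA was followed in KMS11 myeloma cells that received a hairpin against MMSET. The members are all probe sets whose only gene symbol on the HG-U133 Plus 2.0 array is one of these names. They are 11 of 41091 probe sets with a single symbol, and 5 of 19775 genes. KMS11 is an established human multiple myeloma line with the t(4;14) translocation, which brings MMSET (current symbol NSD2), a gene for a histone H3 lysine 36 methyltransferase, under immunoglobulin enhancers. The cells of every group were infected with lentivirus in polybrene and collected at 48 h. The groups were shMMSET#2 and shMMSET#4, which are separate short hairpin RNAs against MMSET, and shLuc, the hairpin control, which is named for luciferase. Each group had 1 array, so no difference has a replicate error and no p-value is given. "Lower" and "higher" describe these 3 arrays of a single cell line, and the number of arrays limits the precision.

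In a plasma cell these regulators form a connected circuit. IRF4, an interferon regulatory factor, is needed by myeloma cells for survival, and it acts on MYC and PRDM1 in these cells. MYC drives growth and ribosome production as a dimer with MAX, and PRDM1 (Blimp-1) is a repressor that shuts off the programme of mature B cells. XBP1 is made active when the sensor IRE1 splices its RNA in the unfolded protein response, and it then expands the secretory apparatus. POU2AF1 (OCA-B) is a coactivator recruited to DNA through the octamer factors POU2F1 and POU2F2.

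Promoters are shown for members with a RefSeq window that was searched, because the genes are described together. MYC, XBP1, IRF4, PRDM1 and the partners of POU2AF1 each also have a known recognition sequence. RefSeq entries (GRCh38.p14, 250 bases before to 50 bases after the start of the transcript) matched 3 of the 5 members with 5 windows. POU2AF1 was not matched. The search left out the chromosome of MYC, so no MYC window could be found and its promoter was not read. The IRF4 window is chr6:391502-391801 on the plus strand, the PRDM1 window is chr6:106086086-106086385 on the plus strand, and the XBP1 window is chr22:28800520-28800819 on the minus strand. Each is printed 5′ to 3′ in the direction of transcription, and capitals mark a match to ACGTG, the core bound by XBP1, on either strand.
IRF4: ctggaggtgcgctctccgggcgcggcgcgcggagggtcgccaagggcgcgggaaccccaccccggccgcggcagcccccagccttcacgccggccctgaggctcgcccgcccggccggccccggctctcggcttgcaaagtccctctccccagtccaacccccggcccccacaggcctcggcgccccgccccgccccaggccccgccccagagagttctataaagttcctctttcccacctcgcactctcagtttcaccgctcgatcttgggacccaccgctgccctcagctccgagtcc
PRDM1: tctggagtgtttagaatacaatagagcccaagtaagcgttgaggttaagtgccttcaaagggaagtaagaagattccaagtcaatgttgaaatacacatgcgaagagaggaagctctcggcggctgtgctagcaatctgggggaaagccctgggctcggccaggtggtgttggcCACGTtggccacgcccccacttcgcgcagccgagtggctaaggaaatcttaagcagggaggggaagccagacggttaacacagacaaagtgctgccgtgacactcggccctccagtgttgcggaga
XBP1: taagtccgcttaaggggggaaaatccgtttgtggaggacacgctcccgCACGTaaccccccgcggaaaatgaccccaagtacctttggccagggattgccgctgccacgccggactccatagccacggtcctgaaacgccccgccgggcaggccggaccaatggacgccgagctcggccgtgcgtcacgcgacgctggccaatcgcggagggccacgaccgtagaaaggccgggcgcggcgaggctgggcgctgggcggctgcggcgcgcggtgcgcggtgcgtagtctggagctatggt

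Exact letters were searched on both strands. ACGTG, which also lies within the E-box, had 1 match in the printed PRDM1 window, 76 bases before the start (position -76), and 1 in the printed XBP1 window at position -202, both read as CACGT on the printed strand. The IRF4 window had none. This core is common, since 21.4% of 35116 promoter windows hold it. The E-box CACGTG of MYC and MAX (7.26% of windows), the octamer ATGCAAAT (1.77%) and GAAANNGAA, a repeat bound by interferon regulatory factors and PRDM1 (8.11%), were in none of the 5 windows. Second windows of PRDM1 and XBP1 held none of the 4 motifs. A missing match says only that these letters are absent from these windows.

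The probe sets were read as MAS5 signals, which are linear brightness values already scaled by the authors to a common trimmed mean. Signals under 41.2, the 40th percentile of all signals, were set to that floor, and log2 ratios were taken between arrays. A probe set was tested where it exceeded the array's median on at least 1 array, and a difference was called at 2-fold. Of the 11 member probe sets, 8 were tested, and all but one of these exceeded the median on all 3 arrays. The exception, the dimmer IRF4 probe set, exceeded it with shMMSET#4 and shLuc. The median signal was 62.0 with shMMSET#2, 59.5 with shMMSET#4 and 77.4 with shLuc. With arrays set to one median, the tested genes had a median log2 ratio of 0.25 for shMMSET#2 and 0.34 for shMMSET#4, where the deposited scaling gave -0.04 and -0.02. The log2 excess of the 3′ over the 5′ ACTB control probe set, a sign of RNA integrity, was 1.14 with shMMSET#2, 1.14 with shMMSET#4 and 1.70 with shLuc. That of GAPDH was 0.10, 0.00 and 0.04 in the same order and showed no such difference. The part of RNA integrity in the results was not tested.

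The labelled cell type was checked on markers. Of 7 plasma cell markers, JCHAIN (40928 with shMMSET#2, 39387 with shMMSET#4 and 55012 with shLuc) and TNFRSF17 (11771, 21560 and 18258 in the same order) were the brightest. SDC1 (3338, 3646 and 5844), SLAMF7 (1218, 4737 and 7133) and MZB1 (1578, 6817 and 1930) were also bright, whereas CD38 (129, 151 and 94.4) and CD27 (92.8, 30.7 and 59.4) were dim. The markers went both ways: TNFRSF17, SDC1, SLAMF7 and MZB1 were lowest with shMMSET#2, JCHAIN and CD27 with shMMSET#4 and CD38 with shLuc. The brightest signal of any probe set was at most 131 for the 3 B cell markers on the array, at most 105 for 4 T cell markers and at most 82.4 for 4 myeloid markers. The summed plasma cell marker signal, over the highest probe set of each marker on each array, was 59055 with shMMSET#2, 76329 with shMMSET#4 and 88332 with shLuc. JCHAIN is the largest term of the sum, and for SDC1 the sum takes different probe sets on different arrays. The part of this sum in the results was not tested. In bulk RNA, fewer cells of a type and less RNA per cell cannot be told apart.

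The targeted gene was read first. On the brightest NSD2 probe set, 209054_s_at, the signal was 7032 with shMMSET#2, 7476 with shMMSET#4 and 10300 with shLuc. The hairpin signals were thus 1.46-fold and 1.38-fold below shLuc. On the dimmest, 223472_at, the signal was 227 with shMMSET#2, 403 with shMMSET#4 and 1239 with shLuc. That was the largest NSD2 difference with shMMSET#4 (log2 ratio -1.62). The largest with shMMSET#2 was on 222778_s_at, with 335 for shMMSET#2, 1260 for shMMSET#4 and 2165 for shLuc. There the hairpin signals were 6.45-fold and 1.72-fold below shLuc. Over the 6 NSD2 probe sets the median log2 ratio was -1.33 with shMMSET#2 and -0.48 with shMMSET#4. One probe set, 209052_s_at, read slightly higher with shMMSET#4 (1063) than with shLuc (1027).

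All 5 regulators gave their lowest signal with shMMSET#2. The share of all tested genes lowest on that array was not counted. In any degree, 6995 of 13332 tested genes were lower with shMMSET#2 than with shLuc, and 6666 were lower with it than with shMMSET#4. On the brightest probe set of each regulator, 4 of 5 were at least 2-fold lower with shMMSET#2 than with shLuc (10.7% of tested genes). None was 2-fold higher (5.69% of tested genes). With shMMSET#4 none was 2-fold lower (8.95% of tested genes) or 2-fold higher (6.72%). The median log2 ratio of the 5 was -1.25 with shMMSET#2 and -0.35 with shMMSET#4, beside -0.04 and -0.02 over all 13332 tested genes. Both ratios use the same shLuc array, so their signs are not independent. Counted by probe set, shMMSET#2 gave a signal at least 2-fold lower for 5 of the 8 tested (10.6% of 25458 tested probe sets), and shMMSET#4 for 1 of 8 (10.8%). None of the 8 was 2-fold higher with shMMSET#2 (6% of tested probe sets) or with shMMSET#4 (6.02%). The IRF4 probe set 216986_s_at alone was 2-fold lower with both hairpins (4.8% of tested probe sets), and none was 2-fold higher with both (2.62% of tested probe sets, 2.82% of tested genes).

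**Figure D1:**
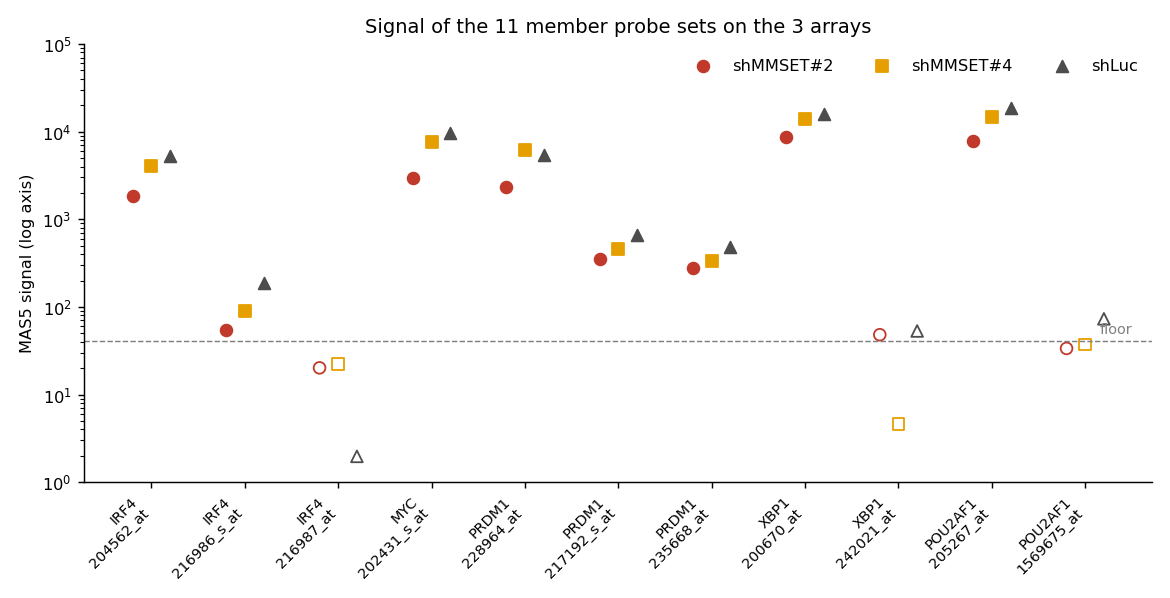
MAS5 signal (log axis) of the 11 member probe sets on the shMMSET#2, shMMSET#4 and shLuc arrays, 1 point per array. Filled points are the 8 tested probe sets, open points the 3 not tested, and the dashed line is the floor of 41.2. Each of the 8 is lowest with shMMSET#2, and 13533 of 25458 tested probe sets were lower with it than with shLuc.

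IRF4, the survival factor of the group, is read by 3 probe sets. Its brightest, 204562_at, had a signal of 1853 with shMMSET#2, 4053 with shMMSET#4 and 5291 with shLuc. The shMMSET#2 array stood apart from the other two, 2.86-fold below shLuc, while shMMSET#4 was 1.31-fold below shLuc. The dimmer probe set 216986_s_at had 54.7 with shMMSET#2, 88.9 with shMMSET#4 and 189 with shLuc, so that here both hairpins were at least 2-fold lower (3.45-fold and 2.13-fold). The call with shMMSET#4 was lost at the same median signal (log2 ratio -0.71), with quantile normalization (-0.79), with the pseudocount (-0.87), with decile centring (-0.84) and with the 60th percentile floor (-0.68), and at that floor the call with shMMSET#2 was lost too (-0.68). The third, 216987_at, was under the floor on every array (20.2, 22.5 and 1.97 for shMMSET#2, shMMSET#4 and shLuc) and gave no ratio. The tested IRF4 probe sets differed from each other by 0.27 in their log2 ratio with shMMSET#2 and by 0.70 with shMMSET#4. Over 6611 genes with at least 2 tested probe sets, the median of that range was 0.60 and 0.62.

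MYC, the growth regulator, is read by a single probe set. Its signal was 2979 with shMMSET#2, 7547 with shMMSET#4 and 9616 with shLuc. The shMMSET#2 signal was 3.23-fold below shLuc, the largest difference with that hairpin among the brightest probe sets of the members. The shMMSET#4 signal was 1.27-fold below shLuc, where IRF4 was 1.31-fold below. Among tested probe sets of the same signal decile, the brightest, 0.746% had a log2 ratio with shMMSET#2 as low as that of MYC and 1.30% one as low as that of IRF4. With shMMSET#4 those shares were 22.0% for MYC and 19.9% for IRF4, so many bright probe sets were as low. The log2 ratios of IRF4 and MYC lay within 0.18 of each other with shMMSET#2 and within 0.04 with shMMSET#4. A constant factor per array does not alter these differences.

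PRDM1, the repressor, is read by 3 tested probe sets that differed in direction with shMMSET#4. On the brightest, 228964_at, the signal was 2362 with shMMSET#2, 6158 with shMMSET#4 and 5403 with shLuc. With shMMSET#2 it was 2.29-fold below shLuc, and with shMMSET#4 it was 1.14-fold above, the only tested member probe set whose shMMSET#4 signal exceeded that of shLuc. The other probe sets, 217192_s_at (348 with shMMSET#2, 457 with shMMSET#4 and 658 with shLuc) and 235668_at (279, 337 and 478 in the same order), placed shMMSET#4 between the other arrays. They were 1.89-fold and 1.71-fold below shLuc with shMMSET#2, and 1.44-fold and 1.42-fold below it with shMMSET#4. With shMMSET#4 the direction of PRDM1 therefore depended on the probe set, and the mean log2 ratio over all 3 was -0.28, against 0.19 on the brightest.

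XBP1, the secretory regulator, had the smallest difference with shMMSET#2 among the brightest probe sets of the members. Its bright probe set 200670_at had 8577 with shMMSET#2, 14115 with shMMSET#4 and 16087 with shLuc. The shMMSET#2 signal was 1.88-fold below shLuc, just short of the 2-fold threshold, and the shMMSET#4 signal 1.14-fold below it. The other XBP1 probe set, 242021_at (48.2, 4.64 and 53.2 for shMMSET#2, shMMSET#4 and shLuc), was under the median of every array and was not tested. A signal of this kind does not tell the spliced from the unspliced XBP1 transcript, so the active form was not measured.

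POU2AF1, the octamer coactivator, was brightest on 205267_at, with a signal of 7821 for shMMSET#2, 14558 for shMMSET#4 and 18545 for shLuc. The shMMSET#2 signal was 2.37-fold and the shMMSET#4 signal 1.27-fold below that of shLuc. Its second probe set, 1569675_at (33.6, 37.3 and 73.1 in the same order), was not tested. In the brightest decile 2.32% of tested probe sets were as low as POU2AF1 with shMMSET#2, 2.75% as low as PRDM1 and 6.09% as low as XBP1.

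Ranks within an array do not depend on how the array was scaled. IRF4 stood at percentile 90.3 of all probe sets with shMMSET#2, 95.3 with shMMSET#4 and 96.6 with shLuc. MYC stood at 93.7, 97.6 and 98.3 in that order, and PRDM1 at 92.1, 97.0 and 96.7. XBP1 and POU2AF1 are so bright that their ranks could move little, and they stood at 98.0 and 97.8 with shMMSET#2, 98.9 and 98.9 with shMMSET#4, and 99.0 and 99.2 with shLuc. By rank, as by signal, all 5 were lowest with shMMSET#2, and the share of all genes so placed was not counted.

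**Figure D2:**
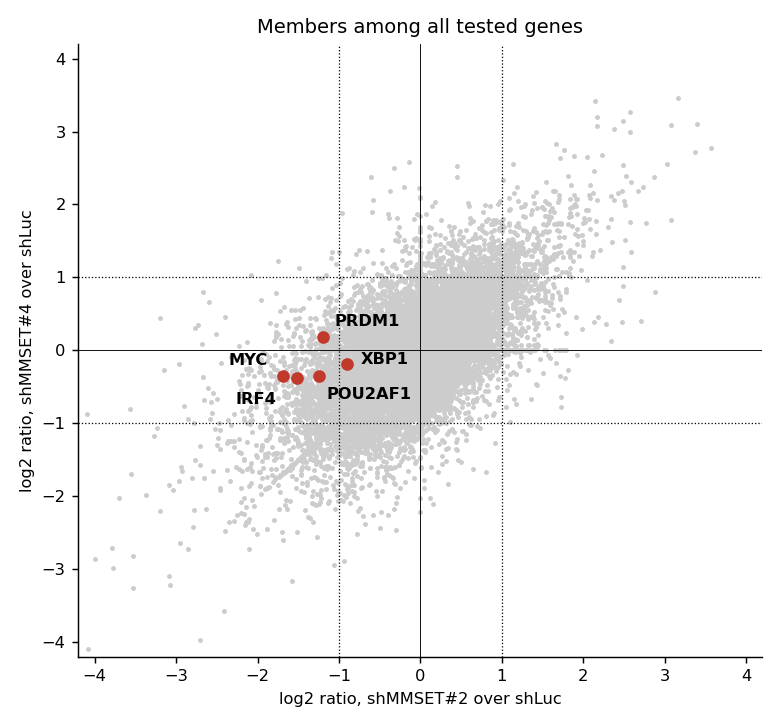
Log2 ratio with shMMSET#2 (horizontal) against log2 ratio with shMMSET#4 (vertical), both over shLuc, on the brightest probe set of each of 13332 tested genes in grey, with the 5 members in red; 1 gene lies beyond the axes. Dotted lines mark 2-fold; the members lie left of or near -1 on the horizontal axis and between -0.38 and 0.19 on the vertical axis, and the axes share the shLuc array.

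Brightness matters for reading these values, because bright probe sets varied less. The brightest probe set of every member lies in the brightest decile, where shMMSET#2 gave a signal 2-fold or more below shLuc for 4.87% of probe sets and shMMSET#4 for 2.36%. In the same decile 95% of probe sets lay within 1.87-fold between the hairpin arrays, the only yardstick of spread here, and one that also holds real differences between hairpins. MYC, IRF4, POU2AF1 and PRDM1 exceeded it with shMMSET#2 against shLuc, and XBP1 (1.88-fold) barely did. With shMMSET#4 against shLuc all 5 were within it.

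The hairpins can be set against each other without the shLuc array. This direct ratio uses the same shMMSET#2 array as the ratio of shMMSET#2 over shLuc, so it is not independent of that ratio. All 5 members were higher with shMMSET#4 than with shMMSET#2 on the brightest probe set, as were 6666 of 13332 tested genes. At least 2-fold higher were 3 of the 5 (6.58% of tested genes), and none was 2-fold lower (3.72% of tested genes). PRDM1 was 2.61-fold higher with shMMSET#4 than with shMMSET#2, MYC 2.53-fold and IRF4 2.19-fold. POU2AF1 was 1.86-fold higher, at the edge of the range that held 95% of bright probe sets, and XBP1 1.65-fold higher, inside it. In the brightest decile 0.943% of probe sets had a ratio as high as PRDM1, 1.10% as high as MYC and 2.08% as high as IRF4. All 8 tested member probe sets were higher with shMMSET#4, as were 11997 of 25458 tested probe sets. At least 2-fold higher were 3 of the 8 (5.67% of tested probe sets), and none was 2-fold lower (4.59%). The dimmer PRDM1 probe sets were only 1.31-fold and 1.21-fold higher. The 3 probe sets of PRDM1 spanned 1.11 on the log2 scale in this comparison, a range that 16.2% of the 6611 genes reached. All 6 NSD2 probe sets were also higher with shMMSET#4 than with shMMSET#2, by log2 ratios from 0.09 to 1.91.

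**Figure D3:**
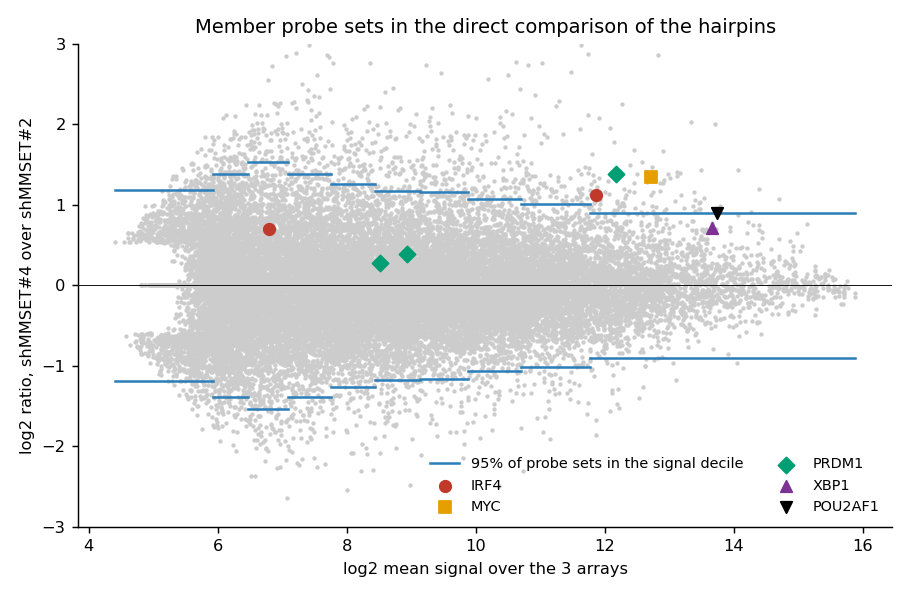
Log2 ratio of shMMSET#4 over shMMSET#2 (vertical) against log2 mean signal (horizontal) for the 25458 tested probe sets in grey, with the 8 tested member probe sets in colour; 14 probe sets lie beyond the vertical axis. Blue bars mark the range that held 95% of probe sets in each signal decile; the brightest probe sets of PRDM1, MYC and IRF4 lie above it, and XBP1, POU2AF1 and the dimmer probe sets lie inside it.

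A constant factor per array does not alter the differences between members within a comparison, whereas quantile normalization can. With shMMSET#2 the log2 ratio of MYC lay 0.78 below that of XBP1 (MYC minus XBP1 -0.78, 1.72-fold), the widest gap of the 10 pairs, and the gap between PRDM1 and POU2AF1 was 0.05. With shMMSET#4 the widest gap was that of IRF4 minus PRDM1 (-0.57), and MYC and POU2AF1 had the same log2 ratio to 2 decimals (-0.35). Under quantile normalization MYC was at -0.41 and POU2AF1 at -0.32 with that hairpin. The order of the members by size of difference was thus MYC, IRF4, POU2AF1, PRDM1 and XBP1 with shMMSET#2 in the deposited scaling. Under quantile normalization PRDM1 (-1.25) came before POU2AF1 (-1.19). Neighbours in the deposited order differed by at most 0.29 on the log2 scale. This is less than the median range of 0.60 between probe sets of one gene. No order was read with shMMSET#4.

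The genes with the most similar pair of ratios to each member were sought by Euclidean distance over the 2 log2 ratios, which rest on 3 arrays. The nearest 3 were ANKRD20A5P, APBA2 and ATAD3C for IRF4, PRSS3P2, SPATA32 and TSPAN7 for MYC, and GNAI2, OLFM2 and IGF2BP2 for PRDM1. They were ZMYM4, NMNAT3 and PLS1 for XBP1, and TESMIN, NKAIN2 and JDP2 for POU2AF1. Their distances were between 0.0078 and 0.053. ATAD3C, SPATA32, OLFM2 and TESMIN were under the floor with shMMSET#2, so their ratio there is set by the floor and their distance is not a measured one. Within a distance of 0.25 lay 92 genes for IRF4, 67 for MYC, 96 for PRDM1, 333 for XBP1 and 196 for POU2AF1, so many genes share each pattern on this few arrays.

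The partners of IRF4 were mostly within 2-fold of shLuc, as were most tested genes. Of 13 tested interferon regulatory factors and partner factors, 1 was called lower (10.7% of tested genes were) and 2 were called higher (5.69%) with shMMSET#2, and with shMMSET#4 none was called lower (8.95%) and 1 was called higher (6.72%). IRF5 had 39.4 with shMMSET#2, which is under the floor, 198 with shMMSET#4 and 136 with shLuc, and another IRF5 probe set was lower with both hairpins (log2 ratios -1.04 and -1.44). SPIB, an Ets factor that pairs with IRF4 on DNA, had 718, 387 and 289 in the same order, but its other tested probe set had log2 ratios of 0.74 with shMMSET#2 and -0.51 with shMMSET#4. BATF3, a partner of the AP-1 class, had 118, 159 and 24.9, the last under the floor, and JUNB had 501, 324 and 521. The list median was 0.21 with shMMSET#2 and 0.14 with shMMSET#4, beside -0.04 and -0.02 over all tested genes, and became 0.53 and 0.52 at the same median signal.

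Genes around MYC were mostly within 2-fold of shLuc, as were most tested genes. Of 13 tested partners and regulators of MYC, 2 were called lower with shMMSET#2 (10.7% of tested genes) and none higher (5.69%). At the same median signal 1 was lower and 1 higher, where 726 and 1630 of 13332 tested genes were. MLXIP (MondoA, a partner of MLX) had 254 with shMMSET#2, 442 with shMMSET#4 and 731 with shLuc, and a second probe set gave log2 ratios of -0.68 and 0.04. MNT, a repressor that competes with MYC for MAX, had 1041, 841 and 2048 in that order, and was the 1 gene of this list at least 2-fold lower with shMMSET#4 (8.95% of tested genes), a call lost at the same median signal. MXI1, an antagonist of MYC chosen after its values were seen, had 2063, 2796 and 4928. MXD1 (928, 963 and 744) and FBXW7 (1866, 1043 and 1114), which marks MYC for degradation, were within 2-fold on these probe sets. Another MXD1 probe set had log2 ratios as low as -0.83 with shMMSET#2 and -1.02 with shMMSET#4, and another of FBXW7 reached -0.94 with shMMSET#2.

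Of 25 tested MYC target genes, none was 2-fold lower with shMMSET#2 (10.7% of tested genes) or shMMSET#4 (8.95%) on the brightest probe set. With shMMSET#2 2 were higher (5.69%), and with shMMSET#4 3 were (6.72%). With the mean over probe sets, and without probe sets of the _x_at and _s_at types, 1 was lower with shMMSET#2. Their median log2 ratio was -0.06 with shMMSET#2, where MYC itself was at -1.69, and 0.34 with shMMSET#4. At the same median signal these became 0.26, with MYC at -1.37, and 0.72, so the sign with shMMSET#2 depends on the scaling. CDK4, a kinase of the G1 phase, had 9208 with shMMSET#2, 8092 with shMMSET#4 and 3782 with shLuc. SHMT2, a mitochondrial enzyme of serine metabolism, had 1931, 8189 and 1416, and thus stood apart with shMMSET#4. The lowest were LDHA, lactate dehydrogenase (19087, 28435 and 32492), and NPM1, nucleophosmin (24123, 29229 and 34192), both within 2-fold on these probe sets, while other NPM1 probe sets reached a log2 ratio of -1.59 with shMMSET#2. The second probe set of NCL, nucleolin, chosen after its values were seen, had -1.65.

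B cell genes that PRDM1 is known to repress ranged from genes too dim to test to ETS1 (2330 or more on every array). Of a list of 20, 13 were tested, and with shMMSET#2 3 of them were at least 2-fold lower (10.7% of tested genes) and 1 was higher (5.69%). With shMMSET#4, 4 were lower (8.95%) and 1 was higher (6.72%). The 4 lower calls with shMMSET#4 became 0 at the same median signal and 1 with quantile normalization, with the pseudocount, with decile centring and with the mean over probe sets. BCL6, the germinal centre repressor, had 143 with shMMSET#2, 169 with shMMSET#4 and 425 with shLuc, and was the 1 gene of the list lower with both hairpins (4.37% of tested genes were), a call lost at the same median signal. Its other tested probe set had log2 ratios of -1.36 and -0.61. BLNK, a B cell receptor adaptor, had 113, 215 and 410. SPIB, in this list too, was among the highest. So was ETS1 (4320, 6111 and 2330), but the 2 other tested ETS1 probe sets had log2 ratios of -0.25 and -0.14 with shMMSET#2 and of -0.01 and -0.69 with shMMSET#4. The list median of -0.26 with shMMSET#2 turned to 0.06 with the arrays at the same median and to 0.04 with the mean over probe sets. With shMMSET#4 it was -0.78, and -0.40 at the same median. It shrank to -0.15 with the 60th percentile floor and to -0.02 without probe sets of the _x_at and _s_at types, which left 9 genes. Its size with shMMSET#4 thus depended on dim genes and on the probe sets chosen.

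Among 7 tested genes of the unfolded protein response and of XBP1 splicing, 3 were at least 2-fold lower with shMMSET#2 (10.7% of tested genes). None was higher (5.69%). The 3 were EIF2AK3, ATF4 and HSPA5, and neither ERN1 nor RTCB was among them on the brightest probe set. At the same median signal 1 was lower and 1 higher, where 726 and 1630 of 13332 tested genes were. With quantile normalization 2 were lower, where 1025 of 13332 tested genes were. With shMMSET#4, as deposited, EIF2AK3 alone was at least 2-fold lower (8.95% of tested genes) and RTCB alone 2-fold higher (6.72%). EIF2AK3, which encodes the sensor PERK, had 2636 with shMMSET#2, 2463 with shMMSET#4 and 10824 with shLuc, and was lower with both hairpins, 4.11-fold and 4.39-fold. ERN1, which encodes IRE1, the enzyme that splices XBP1, had 1285, 1732 and 2528, and its other tested probe sets reached log2 ratios of -1.52 with shMMSET#2 and -1.13 with shMMSET#4. RTCB, the ligase that joins the spliced exons, had 2791, 4110 and 1875, and the sensor gene ATF6 had 4576, 4094 and 2481, so both were higher with each hairpin than with shLuc. ATF4 (13943, 22448 and 28464) and the chaperone gene HSPA5 (11922, 22398 and 24800), chosen after their values were seen, passed 2-fold, downward, with shMMSET#2 and had log2 ratios of -0.34 and -0.15 with shMMSET#4.

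Of 26 tested targets of XBP1, 2 were at least 2-fold lower (10.7% of tested genes) and 1 was higher (5.69%) with shMMSET#2, and none was lower (8.95%) and 2 were higher (6.72%) with shMMSET#4. At the same median signal none was lower with shMMSET#2, where 726 of 13332 tested genes were. In that setting 7 were higher with shMMSET#4, where 1982 of 13332 tested genes were. EDEM1, which removes misfolded glycoproteins, had 528 with shMMSET#2, 1045 with shMMSET#4 and 1179 with shLuc. SERP1, a stabiliser of translocated proteins chosen after its values were seen, had 4811, 12670 and 10133, but its 3 other tested probe sets ranged from -0.42 to 0.63 in log2 ratio with shMMSET#2. CRELD2, an endoplasmic reticulum stress gene, had 2626, 4154 and 1289. HERPUD1 had 17922, 16963 and 25501 (log2 ratios of -1.02 and -0.91 on its other tested probe set), and DNAJC3, a co-chaperone, 1970, 2839 and 1448. Compared directly, the list had a median log2 ratio of 0.50 for shMMSET#4 over shMMSET#2, beside 0.00 for all tested genes. In that comparison 3 of 26 were at least 2-fold higher (6.58% of tested genes) and none was lower (3.72%). The median with shMMSET#2 over shLuc was -0.19, and it turned to 0.17 at the same median signal, whereas that with shMMSET#4 was 0.32 and 0.71.

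Among 6 tested partners and related genes of POU2AF1, 2 were called lower with shMMSET#2 (10.7% of tested genes) and none with shMMSET#4 (8.95%). The 2 became 1 at the same median signal and 0 with the mean over probe sets. POU2F2, the B-lineage octamer factor, had 121 with shMMSET#2, 218 with shMMSET#4 and 305 with shLuc, and its 5 other tested probe sets ranged from -1.54 to -0.39 in log2 ratio with shMMSET#2 and from -0.28 to 0.31 with shMMSET#4. TCF3, an E protein, had 3342, 6481 and 7288, but its other 10 tested probe sets ranged from -1.19 to 0.88 in log2 ratio with shMMSET#2. TBP (591, 1043 and 725) and CD79B (273, 399 and 297) were within 2-fold. The list median was -0.46 with shMMSET#2 and 0.04 with shMMSET#4, and at the same median signal -0.14 and 0.42.

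**Figure D4:**
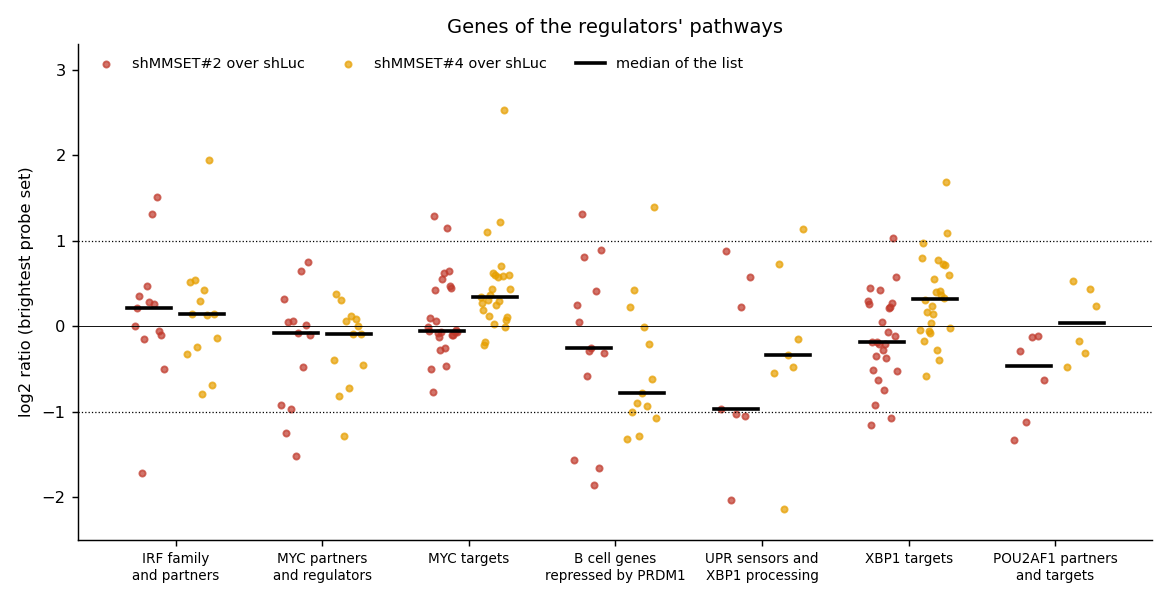
Log2 ratio of each tested gene of 7 lists on its brightest probe set, with shMMSET#2 over shLuc in red and shMMSET#4 over shLuc in orange; black bars are list medians and dotted lines mark 2-fold. MYC targets and XBP1 targets have medians above 0 with shMMSET#4 and near or below 0 with shMMSET#2, in the deposited scaling; at the same median signal the medians with shMMSET#2 are 0.26 and 0.17.

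The scaling decides how the shMMSET#4 values are read. With every array at the same median signal, the log2 ratio with shMMSET#4 became -0.00 for IRF4, 0.03 for MYC, 0.03 for POU2AF1, 0.19 for XBP1 and 0.57 for PRDM1. With shMMSET#2 it became -1.19 for IRF4 and -1.37 for MYC, while POU2AF1 (-0.93) and PRDM1 (-0.87) no longer reached 2-fold. The same scaling turned the tested genes past 2-fold with shMMSET#2 to 726 lower and 1630 higher, against 1420 lower and 759 higher as deposited, and those with shMMSET#4 to 504 lower and 1982 higher, against 1193 and 896. Under every setting that gave it a value, the brightest probe set of each member was lower with shMMSET#2 than with shLuc and higher with shMMSET#4 than with shMMSET#2. The other floor and filters left these bright ratios unchanged, and all settings rest on the same arrays.

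**Figure D5:**
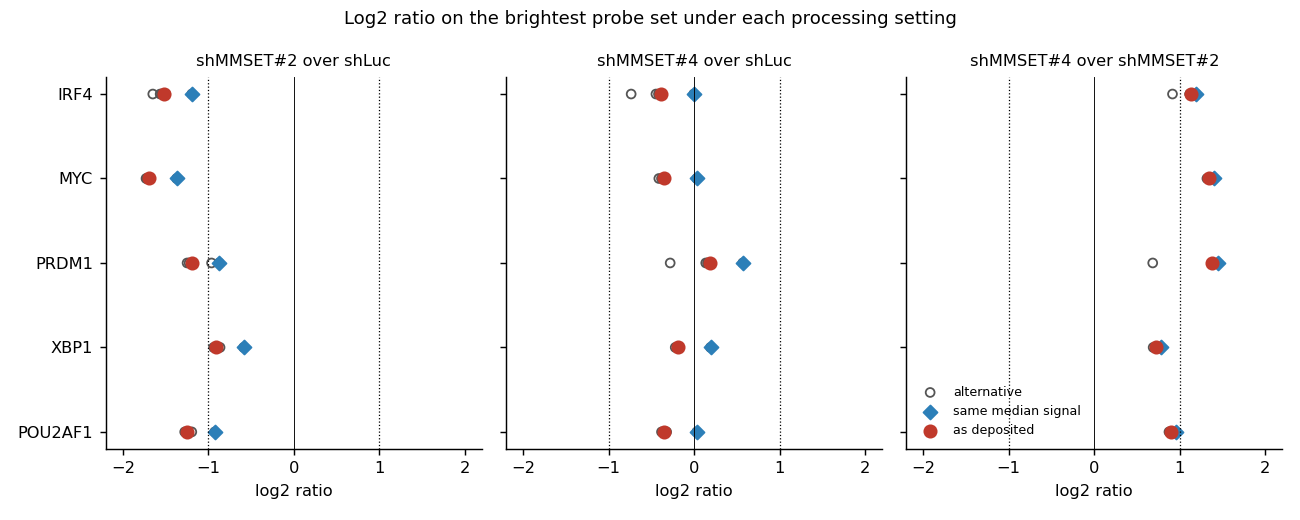
Log2 ratio of each member on its brightest probe set, or as the mean over its tested probe sets, under each processing setting, in 3 comparisons. Red is the deposited scaling, blue diamonds the same median signal and open circles the other alternatives; the shMMSET#4 over shLuc values lie on both sides of 0, and the other comparisons keep their side.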

How the data were processed

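Biotin-labelled RNA of 3 KMS11 samples, 1 per hairpin, was hybridised to Affymetrix arrays, per the labels' protocols. The deposited values are intensity values on a linear scale, made with MAS5 per the submitters' processing notes, and GeneSpring is named in the series' design text. Their versions are not stated in those sources. The 54675 probe set names are those of the HG-U133 Plus 2.0 array, whereas the design text names a smaller array of the same family. The 2% trimmed mean was 500.1 on every array, so the authors had scaled them alike, and no rescaling was done.

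After leaving out 62 control probe sets, 41091 had 1 symbol, 1801 had several and 11721 had none here. Symbols were updated by Entrez identifier. The floor, filter and 2-fold threshold stand in the report. Genes outside the members were read on their brightest probe set, apart from NSD2 and the cell type markers. The summed marker signal took the highest probe set of each marker on each array. Named list genes were the 2 lowest and 2 highest by the mean of both log2 ratios over shLuc, and exceptions are marked. Members and lists were chosen with earlier results of these data known. Ratios were tested on simulated data with known changes. The alternatives were other scalings, floors, filters, thresholds, probe set choices and, chosen after seeing the data, centring on each signal decile. The work used matplotlib 3.10.9, scipy 1.17.1, numpy 2.4.6 and pandas 2.3.3 under Python 3.11.15.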

Additional observations from a re-analysis of the deposited data

How the results depend on the processing

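No paired analysis was possible because each hairpin had 1 array with the same replicate number. On the brightest probe sets, the log2 ratio with shMMSET#2 stayed between -1.65 and -1.19 for IRF4 and between -1.73 and -1.37 for MYC. With the arrays at the same median signal, 2 members in place of 4 passed 2-fold with shMMSET#2, and the tested genes became 726 lower and 1630 higher with shMMSET#2 and 504 lower and 1982 higher with shMMSET#4, since the scaling raises all ratios over shLuc. Quantile normalization gave 772 genes lower with shMMSET#4. Without a floor, 821 genes were lower with shMMSET#4 than with shMMSET#2. With a floor at the 60th percentile, 715 genes were lower with shMMSET#2 and 519 with shMMSET#4, and 224 were lower and 508 higher with shMMSET#4 than with shMMSET#2. At 1.5-fold the counts were 3005 lower and 2161 higher with shMMSET#2, 2748 and 2307 with shMMSET#4, and 1816 and 2264 for shMMSET#4 over shMMSET#2, with 5 members higher in the last. At 3-fold they were 353 and 174, 260 and 222, and 90 and 190, with 1 member lower with shMMSET#2 and 0 members higher with shMMSET#4 over shMMSET#2. With the mean over the probe sets of a gene, 1 member was 2-fold higher with shMMSET#4 than with shMMSET#2. In that setting PRDM1, at -0.96 with shMMSET#2, no longer reached 2-fold. MYC, with a single probe set of the _s_at type, had no value without such probe sets. Arrays without replicates, and signals near the floor, limit all of these values.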
